A study of Mus musculus with 10 samples.

Results

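Genes that belong to B, T and natural killer (NK) lymphocytes were examined in sorted mouse neutrophils, a myeloid cell type that does not use the lymphocyte programme. The set holds 34 genes, 8 of B cells, 17 of T cells and 9 of NK and cytotoxic cells, chosen by name. A gene was given the value of every peak that the deposited tables annotate to it as the nearest start. Of the 34 genes, 33 had at least 1 peak in at least 1 of 4 histone mark tables, with 414 of the 246468 peaks in all. Rag1, one of the pair of recombinase genes that cut antigen receptor loci, had no peak in any table.

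Histone H3 carries different modifications at different parts of a gene. H3K4me3 sits at promoters, H3K4me1 mostly at enhancers and around promoters, H3K27ac at active promoters and enhancers, and H3K36me3 over the body of transcribed genes. Promoters rich in the dinucleotide CpG often carry H3K4me3 even where the gene is silent, and in embryonic stem cells many developmental transcription factor genes combine H3K4me3 with the repressive mark H3K27me3, which was not analysed here. Lymphocyte identity rests on factors such as Pax5 and Ebf1 (B cells), Tcf7, Lef1, Gata3 and Bcl11b (T cells) and Eomes and Tbx21 (NK cells), and on the receptors and kinases whose genes they control.

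The neutrophils were sorted and taken directly from the animal without culture, from wild-type C57BL6 mice (WT) and from mice labelled Morrbid deficient on the C57BL6 background (KO). Morrbid is a long non-coding RNA that controls the lifespan of short-lived myeloid cells. Each mark had 1 WT and 1 KO library, so the differences given here have no replicate check and none was tested. Age, sex, the number of animals per library and the sort gate are not given in the sources used here. Nothing in the labels ties a library to a stated number of animals, and a low signal from all cells cannot be told apart from a strong signal in a few cells.

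Signal is given in normalized reads per peak as the authors deposited it, with WT before KO throughout. Reads recovered inside peaks ran from 2250264 to 11618230 in the WT libraries and from 10265524 to 14317664 in the KO libraries. The KO had 3.85 to 5.87 times as many as the WT in H3K4me3, H3K27ac and H3K4me1, and 1.13 times as many in H3K36me3. At the Morrbid locus, annotated as Gm14005, summed signal was lower in the KO in each mark, from 1379 against 190.2 in H3K4me3 and 4809 against 739 in H3K36me3 to 5104 against 2225 in H3K27ac and 6471 against 3449 in H3K4me1. Among neutrophil markers 18 of 20 had an H3K4me3 peak and 14 had one at the start, with WT values from 80.0 to 3391. Ly6g, the usual surface marker of mouse neutrophils, had no peak in any table, and S100a8 and S100a9 had a peak centred at their start in H3K36me3 alone.

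The promoter sequences of 6 genes are shown because their CpG content and their marks differ. They come from RefSeq (assembly GRCm38.p6), run from 250 bases before to 50 bases after the annotated start on the gene's own strand, and have each CpG in capitals. Tbx21, Pax5 and Gata3 encode transcription factors, with 21, 23 and 22 CpG in 300 bases (chr11:97115282-97115581, chr4:44710645-44710944 and chr2:9878551-9878850, all on the minus strand).
Tbx21: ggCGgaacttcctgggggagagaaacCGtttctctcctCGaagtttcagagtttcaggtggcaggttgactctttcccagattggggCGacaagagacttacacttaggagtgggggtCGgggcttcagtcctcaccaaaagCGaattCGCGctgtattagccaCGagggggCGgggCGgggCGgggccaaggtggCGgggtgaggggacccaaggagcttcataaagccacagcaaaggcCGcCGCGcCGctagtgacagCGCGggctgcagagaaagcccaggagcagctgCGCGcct
Pax5: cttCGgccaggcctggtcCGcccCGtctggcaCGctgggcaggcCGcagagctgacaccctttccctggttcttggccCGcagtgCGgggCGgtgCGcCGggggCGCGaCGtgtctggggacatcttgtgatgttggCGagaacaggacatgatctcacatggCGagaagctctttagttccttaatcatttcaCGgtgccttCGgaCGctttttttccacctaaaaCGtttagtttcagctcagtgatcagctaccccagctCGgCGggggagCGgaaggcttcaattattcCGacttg
Gata3: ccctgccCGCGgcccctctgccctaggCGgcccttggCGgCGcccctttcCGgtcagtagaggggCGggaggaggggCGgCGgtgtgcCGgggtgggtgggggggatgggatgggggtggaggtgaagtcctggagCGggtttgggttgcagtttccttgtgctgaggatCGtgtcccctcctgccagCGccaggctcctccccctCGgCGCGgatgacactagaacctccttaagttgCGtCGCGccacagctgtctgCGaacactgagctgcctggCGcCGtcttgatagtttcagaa
The other promoters belong to Cd3d (chr9:44981536-44981835, plus strand), which encodes a CD3 chain of the T cell receptor, to the B cell adaptor Bank1 (chr3:136326017-136326316, minus strand) and to Rag1 (chr2:101649483-101649782, minus strand). They hold 1, 3 and 3 CpG.
Cd3d: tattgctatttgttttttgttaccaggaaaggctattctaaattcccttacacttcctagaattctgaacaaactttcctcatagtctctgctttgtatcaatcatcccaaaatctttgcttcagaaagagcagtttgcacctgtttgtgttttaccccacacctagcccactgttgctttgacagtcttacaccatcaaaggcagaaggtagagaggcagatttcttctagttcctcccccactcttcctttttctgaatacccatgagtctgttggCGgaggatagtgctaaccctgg
Bank1: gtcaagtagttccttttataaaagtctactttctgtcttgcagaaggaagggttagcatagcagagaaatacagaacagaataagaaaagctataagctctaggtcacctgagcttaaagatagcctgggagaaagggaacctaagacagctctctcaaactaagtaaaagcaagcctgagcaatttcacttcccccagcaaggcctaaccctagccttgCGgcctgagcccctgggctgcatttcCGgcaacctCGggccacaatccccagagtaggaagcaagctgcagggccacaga
Rag1: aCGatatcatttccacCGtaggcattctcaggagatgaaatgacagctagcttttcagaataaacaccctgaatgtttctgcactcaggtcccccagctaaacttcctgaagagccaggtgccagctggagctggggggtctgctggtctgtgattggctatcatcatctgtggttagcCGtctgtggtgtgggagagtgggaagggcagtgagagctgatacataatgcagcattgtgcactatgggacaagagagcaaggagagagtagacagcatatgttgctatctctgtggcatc

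The lymphocyte genes carried H3K4me1 most often and H3K36me3 least often, and protein-coding genes in general followed the same order. H3K4me1 peaks were annotated to 30 of the 34 genes, H3K4me3 peaks to 27, H3K27ac peaks to 25 and H3K36me3 peaks to 16. These are 88.2%, 79.4%, 73.5% and 47.1% of the set. Of the 21900 protein-coding genes of RefSeq 75.2% had an H3K4me1 peak, 72.5% an H3K4me3 peak, 69.3% an H3K27ac peak and 51.2% an H3K36me3 peak.

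Peaks at the promoter itself were fewer. A peak was placed at the start when its centre lay within 5 kb of the annotated start. H3K4me1 start peaks were found for 21 of the 34 genes (61.8%, against 59.4% of protein-coding genes), H3K4me3 start peaks for 18 (52.9% against 60.0%), H3K27ac start peaks for 17 (50% against 51.4%) and H3K36me3 start peaks for 8 (23.5% against 24.6%). When a start peak had to hold at least 10 reads in both libraries, 16, 12, 7 and 6 genes were left, which is 47.1%, 35.3%, 20.6% and 17.6%. The same condition left 49.5%, 54.0%, 44.0% and 21.4% of protein-coding genes. H3K27ac thus lost the most genes to the read minimum, 10 of its 17.

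The weak promoters show in the levels as well. Among all genes with a start peak of the mark, the median lymphocyte gene stood at percentile 21.7 in WT and 20.2 in KO for H3K4me3, at 12.2 and 13.6 for H3K27ac, and at 45.6 and 34.7 for H3K4me1. The order of the genes by summed signal was nearly the same in both libraries, with a Spearman correlation between WT and KO of 0.97 for H3K4me3 (27 genes), 0.97 for H3K27ac (25 genes), 0.97 for H3K4me1 (30 genes) and 0.99 for H3K36me3 (16 genes). Both libraries of a mark share the peak set and the mappability of each region.

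By nearest-start naming, 9 of the 34 genes had a start peak of no mark. They were the CD3 chain genes Cd3e and Cd3g, the coreceptor genes Cd4 and Cd8a, the interleukin 7 receptor gene Il7r, Rag1, the activating NK receptor gene Ncr1, the inhibitory receptor gene Klrg1 and the granzyme gene Gzmb. For Cd3g this rests on the naming, since its start lies inside peaks named after Cd3d. Another 4 had start peaks of all 4 marks, namely Cd79b, Bank1, Cd3d and Tbx21. The other 21 genes had start peaks of 1 to 3 marks.

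**Figure D1:**
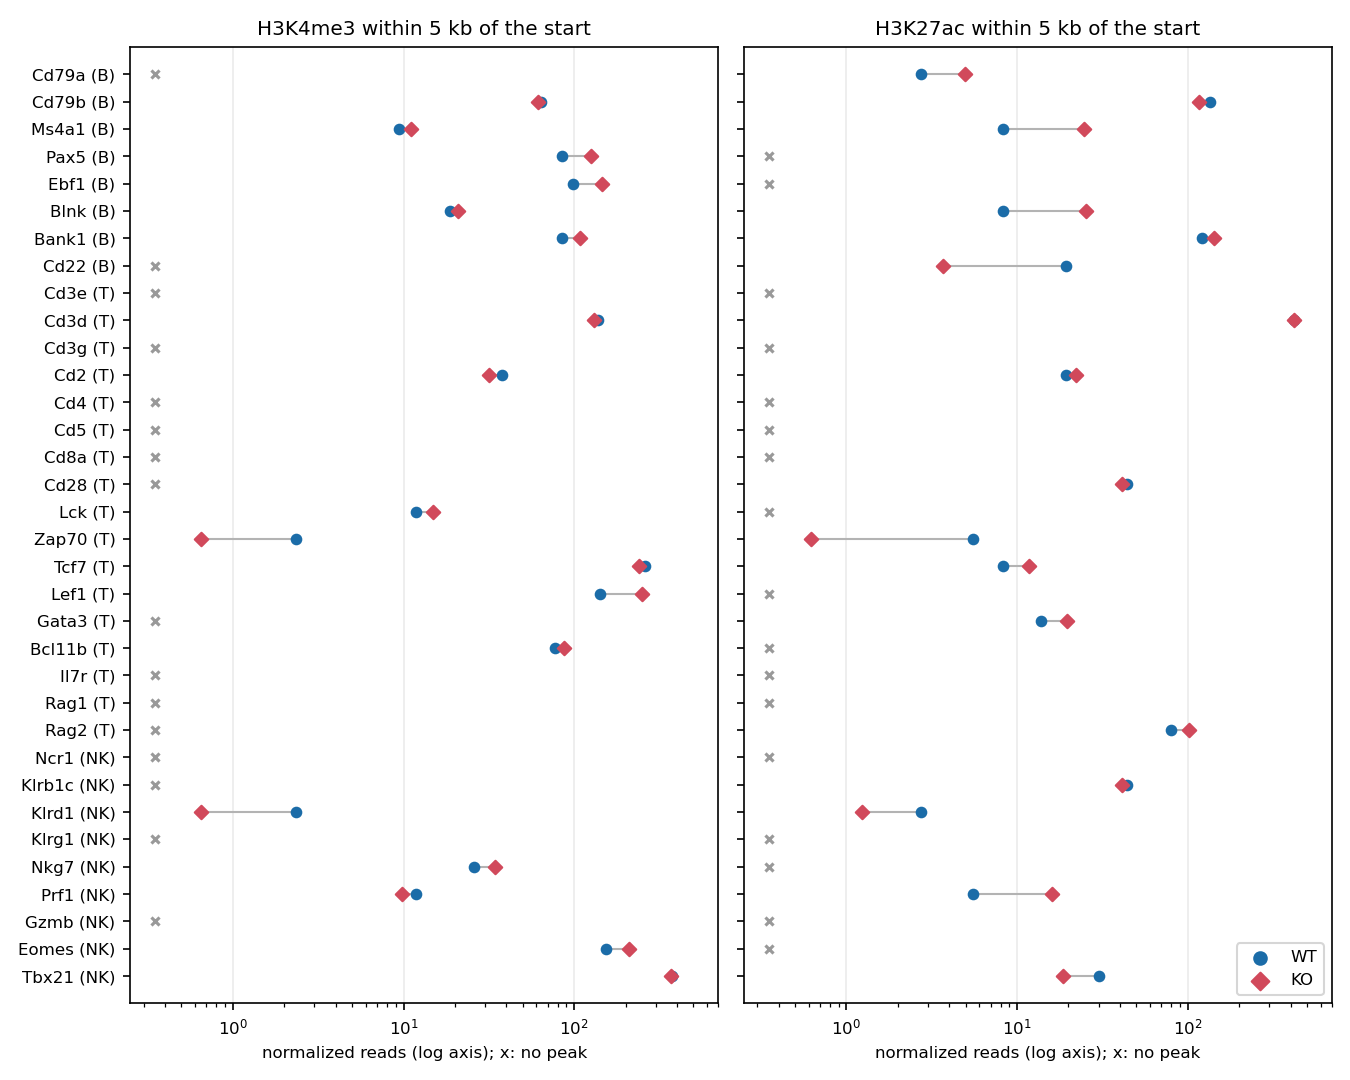
Normalized reads in peaks within 5 kb of the start of each lymphocyte gene (log axis), for H3K4me3 on the left and H3K27ac on the right, with circles for the WT and diamonds for the KO library and a cross for no peak. Tbx21 leads the H3K4me3 panel at 377 and 371, while the H3K27ac panel is led by Cd3d at 421 and 417 and holds crosses for Pax5, Ebf1, Lef1, Bcl11b and Eomes.

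Transcription factor genes held most of the promoter H3K4me3. Of the 8 factor genes 7 had an H3K4me3 start peak with at least 10 reads in both libraries, against 5 of the other 26 genes. For H3K27ac the counts under the same condition were 1 of 8 and 6 of 26. Tbx21, which encodes the T-box factor T-bet of NK and type 1 helper T cells, had the highest H3K4me3 start signal of the set, with 377 and 371. Tcf7, the gene of the T cell factor TCF-1, followed with 259 and 240.1. The signals of the 2 libraries were close to each other at both genes.

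Eomes, the other T-box factor gene of NK cells, had an H3K4me3 start signal of 153 in WT and 211 in KO. Lef1, a partner of TCF-1 in T cell development, had 141 and 249.9. Both were higher in the KO library, with a log2(KO/WT) at the start of 0.45 (95% counting interval 0.06 to 0.86) for Eomes and 0.80 (0.41 to 1.23) for Lef1. The B cell factor genes were lower, with 98.8 and 145 at Ebf1 and 84.7 and 125 at Pax5, the keeper of B cell identity. Bcl11b, a factor required for T cell commitment, had 77.7 and 87.6.

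Gata3, the eighth factor gene, had no H3K4me3 peak of its own name at its start. The start of 4930412O13Rik lies 2.645 kb away, and peaks named after it outside the Gata3 transcript were not examined. It carried H3K4me1 there, with 149 and 134, and H3K27ac of 13.8 and 19.7, which is 5 and 32 reads. Its own transcript and start together held 37.7 and 24.7 of H3K4me3, all of it outside the 5 kb window.

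The H3K4me3 peaks of the factor genes were wide and low. Over 12510 genes with an H3K4me3 start peak of at least 10 reads in both libraries the median peak was 2314 bp wide and had 129 normalized reads per kb in WT and 137 in KO. For the 12 lymphocyte genes the medians were 3416.5 bp, 33.0 per kb and 40.9 per kb. The 7 factor gene peaks ran from 2863 bp at Tcf7 to 7018 bp at Lef1, and the 5 others from 1075 bp at Cd79b to 2303 bp at Bank1. Pax5 spread 84.7 normalized reads of WT signal over 5040 bp, and Bcl11b 77.7 over 4438 bp, which is 16.8 and 17.5 per kb. Tbx21 and Tcf7 had the densest factor peaks at 94.8 and 90.4 per kb in WT, still below the median of all genes.

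H3K27ac was often missing beside H3K4me3. An H3K27ac start peak accompanied 6 of the 12 H3K4me3 start peaks (50%), against 81.1% over the 12510 genes. With at least 10 reads in both libraries for H3K27ac as well, the shares were 33.3% and 74.3%. Pax5, Ebf1, Lef1, Bcl11b, Eomes and the granule membrane protein gene Nkg7 had no H3K27ac peak at the start. Tcf7 had one of 8.26 and 11.7, resting on 3 WT and 19 KO reads, and Tbx21 one of 30.3 and 18.5. A larger H3K27ac peak stood 12.7 kb upstream of Tbx21 (chr11:96987320-96991424, mm9), with 286 and 264, and an H3K4me3 peak of 151 and 158 overlapped it. Ebf1 had its H3K27ac in the gene body, with 220.2 and 242 in a peak of intron 6 (chr11:44621294-44626523, mm9), where 377 and 355 of H3K4me1 and 80.0 and 116 of H3K4me3 also lay.

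B cell receptor and surface genes differed among themselves. Cd79b, a signalling chain of the B cell receptor, had start signals of 63.5 and 61.0 in H3K4me3, 135 and 116 in H3K27ac and 194 and 194 in H3K4me1. Each of these includes a peak 4.0 to 4.8 kb upstream, inside a transcript of Scn4a. Those peaks held 9.41 and 11.7 of H3K4me3, 33.0 and 21.6 of H3K27ac and 54.4 and 66.3 of H3K4me1. Cd79a, the partner of Cd79b, had no H3K4me3 peak and 2.75 and 4.93 of H3K27ac, which is 1 and 8 reads, but 146 and 173 of H3K4me1. Ms4a1, the gene of CD20, had 9.41 and 11.0 of H3K4me3, 8.26 and 24.6 of H3K27ac and 109 and 147 of H3K4me1. At Cd22, an inhibitory receptor gene, H3K27ac within 5 kb of the start was 19.3 and 3.69, from 7 WT and 6 KO reads. The H3K4me1 start signal of Cd22 was low as well, with 13.6 and 17.2.

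Bank1, a B cell scaffold adaptor gene, was the most fully marked of the B cell set. Its start held 84.7 and 108 of H3K4me3, 121 and 142 of H3K27ac, 564 and 562 of H3K4me1 and 143 and 125 of H3K36me3. The H3K36me3 continued into the gene, with 9 peaks at the start or in its own body that summed to 363 and 319. Summed over its peaks H3K36me3 was 446 in WT and 377 in KO, and H3K4me1 was 1237 and 1270.0. Blnk, the adaptor that links the B cell receptor kinase Syk to its targets, had less, with start signals of 18.8 and 20.8 in H3K4me3, 8.26 and 25.2 in H3K27ac and 156 and 190.0 in H3K4me1, and no H3K36me3 peak of its own name.

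Among the CD3 chain genes, which lie close together on chromosome 9, promoter peaks were named after Cd3d alone. The Cd3g start lies 1.36 kb from that of Cd3d on the other strand, inside the promoter H3K27ac and H3K4me1 peaks named after Cd3d, so these peaks cannot be assigned to one gene of the pair. The start signal of Cd3d was 421 and 417 in H3K27ac, the highest of the set, and 139 and 129.8 in H3K4me3. The larger part of both lay 4.7 kb into the gene. An H3K27ac peak over its last exon and 3′ UTR (chr9:44793277-44795874, mm9) held 333 and 345, and the peak at the promoter (chr9:44788437-44790951) held 88.1 and 71.4. H3K4me3 was split in the same way, with 118 and 104 at the far end and 21.2 and 25.3 near the promoter. Cd3e had 27.2 and 19.5 and Cd3g 34.0 and 24.9 of H3K4me1 in their bodies and no peak of their own name in the other marks.

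T cell surface genes had few marked starts. Cd28, the costimulatory receptor gene, had an H3K27ac peak at its promoter of 44.0 and 41.3 (chr1:60802366-60804202, mm9) and H3K4me1 of 57.8 and 68.1, without H3K4me3 there. Most of its signal was intergenic, with an H3K4me1 peak of 693 and 689 at 79.4 kb from the start, and its H3K4me1 sum of 1345 and 1327 was the second highest of the set. Cd2, an adhesion receptor gene, had 37.7 and 31.8 of H3K4me3 and 19.3 and 22.2 of H3K27ac in peaks 3.2 to 3.7 kb from its start. Cd5 had 40.8 and 38.5 of H3K4me1 at its start. At Cd4 the only peak was an H3K4me3 peak of 1 read in both libraries. Another H3K4me3 peak, of 58.8 and 68.8, lay at the end of the Cd4 transcript and was annotated to the neighbour Gpr162. Il7r had peaks in its body and outside it, with own-body H3K27ac of 33.0 and 33.9.

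By nearest-start naming, the kinase genes of the T cell receptor pathway were nearly bare at the start. Lck, the kinase that phosphorylates the CD3 chains, had 11.8 and 14.9 of H3K4me3, 20.4 and 20.1 of H3K4me1 and no H3K27ac peak of its own name. A stronger H3K4me3 peak of 297 and 337 covered exon 7 of Lck (chr4:129232631-129234649, mm9) and was annotated to Mir8119, with 33.0 and 48.6 of H3K27ac. RefSeq lists 2 starts for Lck, of which only 1 could be placed from peaks named after Lck. The distance of the exon 7 peak to the other start was not measured, so a marked second Lck promoter is not excluded. Zap70, the kinase that binds the phosphorylated chains, had 1 read in both libraries for H3K4me3 at its start and 2 and 1 for H3K27ac, in a peak inside a transcript of 4933424G06Rik. In all, 41 peaks in the bodies of 10 lymphocyte genes bore the name of a neighbour and are not in the sums.

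Rag2, the partner of Rag1, had the highest summed H3K4me1 of the set, 1685 and 1723. Its largest H3K4me1 peak, of 846 and 863 (chr2:101408275-101425896, mm9), lay inside the transcript of B230118H07Rik, whose start is 4.24 kb from that of Rag2. The H3K4me1 peak at the Rag2 start, of 370.3 and 437, also covered the start of B230118H07Rik. The H3K27ac start peak of 79.8 and 101 lay in the same transcript, so none of these can be assigned to Rag2. No H3K4me3 peak was placed at the Rag2 start, and one of 85 and 324 reads in its intron was annotated to B230118H07Rik.

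Klrb1c and Ncr1 held their H3K4me3 away from their starts. Klrb1c, which encodes NK1.1, had 4 intergenic H3K4me3 peaks that summed to 699 and 882, the highest H3K4me3 sum of the set. The strongest, of 297 and 354, stood 10.9 kb from the start (chr6:128748007-128751194, mm9). At the Klrb1c start there was H3K27ac of 44.0 and 41.3 and H3K4me1 of 98.5 and 105. Ncr1 had 14.1 and 6.49 of H3K4me3 and 173 and 137 of H3K4me1, both away from the start. Klrd1, the gene of CD94, had 1 read in both libraries for H3K4me3, and all its peaks lay at the start, with 2.75 and 1.23 of H3K27ac and 23.8 and 18.9 of H3K4me1. Klrg1 had 54.4 and 86.4 of H3K4me1 with no peak of the other marks.

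Genes of cytotoxic granule proteins had little signal. Prf1, the gene of the pore-forming protein perforin, had 11.8 and 9.74 of H3K4me3, 5.51 and 16.0 of H3K27ac and 88.3 and 41.4 of H3K4me1 at its start. Nkg7 had 25.9 and 34.4 of H3K4me3 and no H3K27ac, H3K4me1 or H3K36me3 peak. Gzmb, the gene of granzyme B, had 37.7 and 33.1 of H3K4me3 and 24.8 and 46.8 of H3K27ac, none of it within 5 kb of the start.

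**Figure D2:**
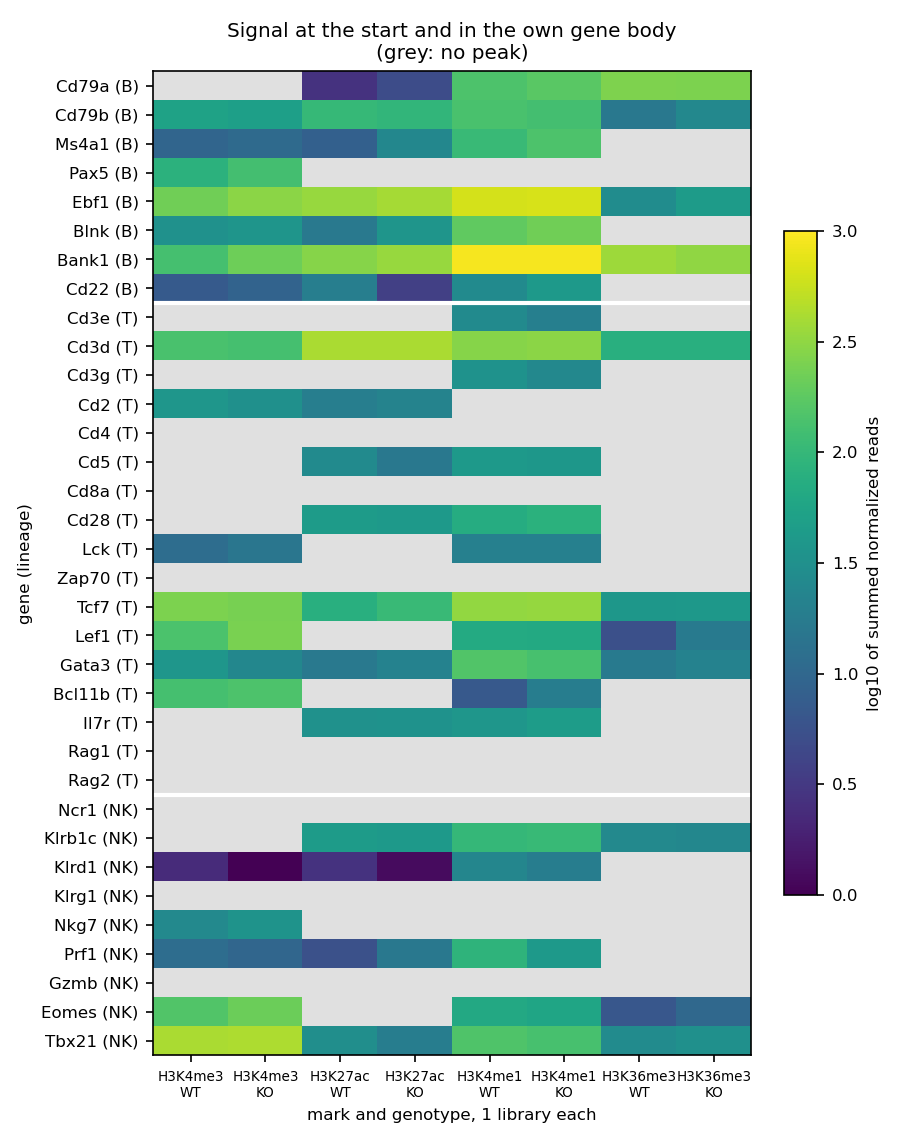
Heat map of log10 summed normalized reads in peaks at the start and in the gene's own body, with 1 row per gene and 1 column per mark and library, grey for no such peak, and peaks inside another gene's transcript left out. Bank1 and Ebf1 are the brightest B cell rows, H3K36me3 is grey for most genes, and Rag2 is grey because its start peaks lie inside B230118H07Rik.

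Much of the H3K36me3 signal annotated to the lymphocyte genes lay in the transcripts of their neighbours, and 1 peak carried most of it. Of the summed H3K36me3 signal 83.2% in WT and 82.7% in KO lay inside a transcript of another gene, and for the T cell genes 94.9% and 94.2%. The same share was 16.3% and 16.9% for H3K27ac, 16.5% and 16.7% for H3K4me1 and 1.55% and 2.94% for H3K4me3. The shares of these marks leave out start peaks inside another gene's transcript, as at Rag2, Cd79b and Zap70. The Rag2 start peaks alone held 370.3 and 437 of H3K4me1 and 79.8 and 101 of H3K27ac. The largest H3K36me3 example was the Zap70 value of 4675 and 4539.9. It was a single peak 79.5 kb wide inside Tmem131 (chr1:36847349-36926828, mm9) that held 67.1% and 66.2% of the summed H3K36me3. Without it the share inside another gene was 49.0% and 48.8% for all genes and 78.2% and 76.3% for the T cell genes, and by number 12 of the 49 H3K36me3 peaks lay there. The Cd8a value of 572 and 536 was a peak in Rmnd5a, and 10 of the 11 peaks behind the Rag2 value of 554 and 596 lay in B230118H07Rik.

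At their own start and body the lymphocyte genes had a mean H3K36me3 of 25.5 in WT and 25.6 in KO, counting a gene without a peak as 0, against 927 and 953 for neutrophil markers. Bank1, with 363 and 319, and Cd79a, with 261 and 258, stood above the others. The Cd79a peak (chr7:25678706-25686090, mm9) ran across the start of Cd79a, and the start of Arhgef1 lay 6.84 kb from that of Cd79a. Cd3d had 77.3 and 77.6, Tcf7 38.6 and 39.3, and the other genes with such peaks lay between 5.37 and 29.0 in WT. No H3K36me3 peak was annotated to 18 of the 34 genes, among them Pax5, Ms4a1, Lck, Prf1 and Gzmb.

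Lymphocyte genes with CpG-rich promoters carried H3K4me3 more often than the rest, as genes in general did. RefSeq promoters were at hand for 27 of the 34 genes, and a promoter was called CpG-rich at an observed/expected CpG of at least 0.6 with a GC content of at least 50%. The 6 genes that passed were Ebf1, Gata3, Lef1, Pax5, Tbx21 and Tcf7, all of them factor genes. H3K4me3 start peaks of the gene's own name were present at 5 of these 6 and at 9 of the other 21. The shares of all genes in the same classes were 84.8% and 36.4%. H3K27ac start peaks were present at 3 of 6 and 9 of 21, against 72.9% and 32.7%. Eomes and Bcl11b, at 0.61 and 0.65 observed/expected, missed on GC content, with 47.3% and 43.0%.

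Across the 27 genes, with 0 for a gene without a start peak, Spearman's correlation of CpG observed/expected with the start signal was 0.56 in WT and 0.58 in KO for H3K4me3. It was 0.02 and 0.03 for H3K27ac, 0.20 and 0.18 for H3K4me1 and 0.16 and 0.16 for H3K36me3. The points share a library and the base composition of their windows, and 13 of the 27 genes had no H3K4me3 start peak. Bank1, shown above with 3 CpG, had H3K4me3 of 84.7 and 108 at its start. Cd3d, with 1 CpG, had most of its H3K4me3 and H3K27ac in peaks 4.7 kb from the start, outside the window shown.

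**Figure D3:**
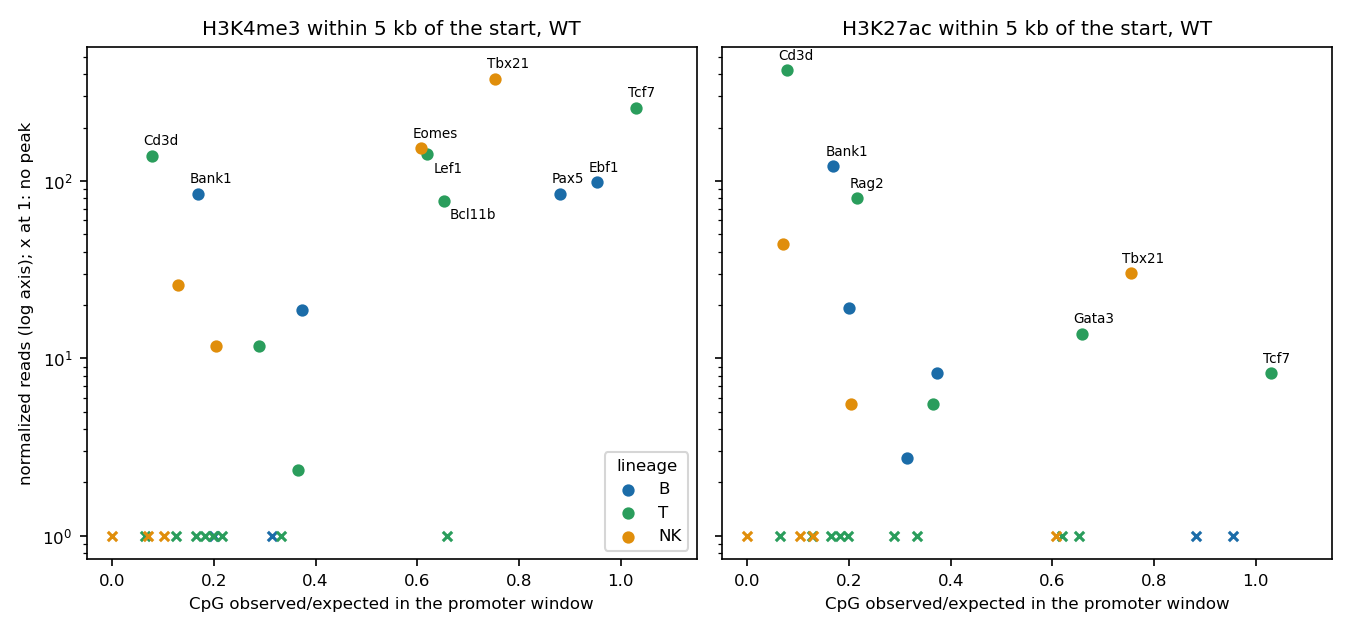
Start signal in the WT library (normalized reads, log axis) against CpG observed/expected of the RefSeq promoter window for 27 lymphocyte genes, with 1 point per gene coloured by lineage and crosses at 1 for genes without a start peak. The genes above 0.55 fill the upper right of the H3K4me3 panel, from 77.7 at Bcl11b to 377 at Tbx21. Gata3 is the exception, without an H3K4me3 start peak of its own name. The genes above 0.55 with an H3K27ac start peak lie between 8.26 and 30.3.

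Short motifs were looked for on both strands of the same windows, without regard to overlap between motifs. TATAAA was in 11.1% of the 36 windows of the 27 genes and in 13.6% of all 32851 windows. GGGCGG, the core of an Sp1 site, was in 27.8% and 35.7%, and GAGGAAGT, a PU.1-type motif, in 2.78% and 3.20%. AACCACA, the core read by Runx factors, was in 7 windows (19.4%) of 6 genes against 5.27% of all windows, and 2 of the 7 were nearly identical starts of Ncr1. Gzmb, Il7r, Rag1, Lck and Ebf1 were the others.

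The WT and KO libraries gave much the same picture. The peaks of a gene were summed, log2 of (KO + 1) over (WT + 1) was taken, and the median peak of the mark was set to 0, a scale that understates the changes of low genes. The median over lymphocyte genes was 0.15 for H3K4me3, 0.14 for H3K27ac, 0.03 for H3K4me1 and 0.13 for H3K36me3, beside 0.07, 0.02, 0.002 and -0.02 over all genes with a peak of the mark. Centred on a running median over genes of similar mean in place of a single median, the H3K4me3 value was 0.01. A change of at least 2-fold upwards was met by 1 gene for H3K4me3, 3 for H3K27ac, none for H3K4me1 and 2 for H3K36me3, where 2.51%, 1.71%, 1.51% and 2.05% of all genes met it. Downwards the counts were 3, 1, 1 and 0, beside 9.52%, 11.2%, 8.61% and 1.28% of all genes.

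Most of these genes had few reads. The genes at least 2-fold lower for H3K4me3 were Cd4 and Klrd1, with 1 read in both libraries, and Ncr1, with 6 and 10 reads. Where both libraries are at 1 read the ratio is set by depth alone, at a log2 of -1.86 in the H3K4me3 table and -2.52 in the H3K4me1 table before the pseudocount, and 64 of the 414 peaks were of that kind. Pax5, lower for H3K4me1, had 1 and 2 reads. Lef1 was lower for H3K27ac, with 22.0 and 8.62 and a log2 of -1.26 whose 95% counting interval of -2.71 to 0.10 held 0.

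Higher H3K27ac in the KO was measured at Ms4a1, Prf1 and Blnk. Ms4a1 had 8.26 and 24.6, a log2 of 1.47 (-0.08 to 3.91). Prf1 had 5.51 and 16.0, a log2 of 1.38 (-0.46 to 4.66), and Blnk had 16.5 and 36.9, a log2 of 1.11 (-0.05 to 2.66). The 3 genes had 3, 2 and 6 WT reads, and each interval held 0. At the start alone Cd22 was lower in the KO, with 19.3 and 3.69 from 7 and 6 reads and a log2 of -2.11 (-4.23 to -0.59). Among genes with at least 20 reads the next lowest after Lef1 were Cd5 at -0.75 (-1.88 to 0.43) and Cd79b at -0.22 (-0.68 to 0.26).

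With the single median as centre, the H3K4me3 interval excluded 0 at 7 genes, each higher in the KO. Cd28 had 28.2 in WT and 77.9 in KO over 3 peaks outside its start, a log2 of 1.42 (0.59 to 2.44). The others were Bank1 at 0.63, Lef1 at 0.63, Pax5 at 0.54 (0.03 to 1.09), Ebf1 at 0.48, Zap70 at 0.40 (0.01 to 0.81) and Klrb1c at 0.32 (0.14 to 0.51). No Zap70 peak lay in its own body, and its start peak had 1 read in both libraries. A running median over genes of similar mean brought the median of the set from 0.15 to 0.01. The count of 7 was not repeated with that centre. Over all genes the interval lay above 0 for 14.9% and below 0 for 6.41%, against 7 and 0 of the 27 genes here. These intervals cover counting error alone and say nothing of differences between animals. Gata3 at -0.69 (-1.49 to 0.13), Cd2 at -0.43 (-1.20 to 0.38) and Prf1 at -0.27 (-1.82 to 1.53) were the lowest with at least 20 reads, and Cd22 at 0.78 (-0.42 to 2.36) stood between Cd28 and Bank1.

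In H3K4me1 the interval lay above 0 for Bcl11b, with 126 and 179.9 and a log2 of 0.51 (0.01 to 1.04), and for Lef1, with 200.4 and 282 and a log2 of 0.48 (0.09 to 0.90). Prf1 lay below 0, with 143 and 89.4 and a log2 of -0.68 (-1.18 to -0.15), and at its start with 88.3 and 41.4 the log2 was -1.08 (-1.77 to -0.39). At the Tcf7 start H3K4me1 was 115 and 72.2, a log2 of -0.68 (-1.24 to -0.09). Over all genes 4.76% lay above and 4.63% below. Gzmb at 0.75 and Klrg1 at 0.65 were higher in value, and Cd3e at -0.46 and Cd3g at -0.44 lower, each with an interval that held 0.

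For H3K36me3 the genes at least 2-fold higher were Lef1, with 5.37 and 16.8 (5 and 18 reads) and a log2 of 1.48 (0.16 to 3.43), and Eomes, with 10.7 and 23.4 (10 and 25 reads) and a log2 of 1.05 (0.01 to 2.34). Cd79b followed at 0.61 (-0.32 to 1.66). Bank1 was lower, with a log2 of -0.25 (-0.45 to -0.05). Zap70, the value with the most reads, was at -0.05 (-0.11 to 0.01), and Cd8a at -0.10 (-0.27 to 0.07). Over all genes 5.85% lay above 0 and 13.3% below.

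**Figure D4:**
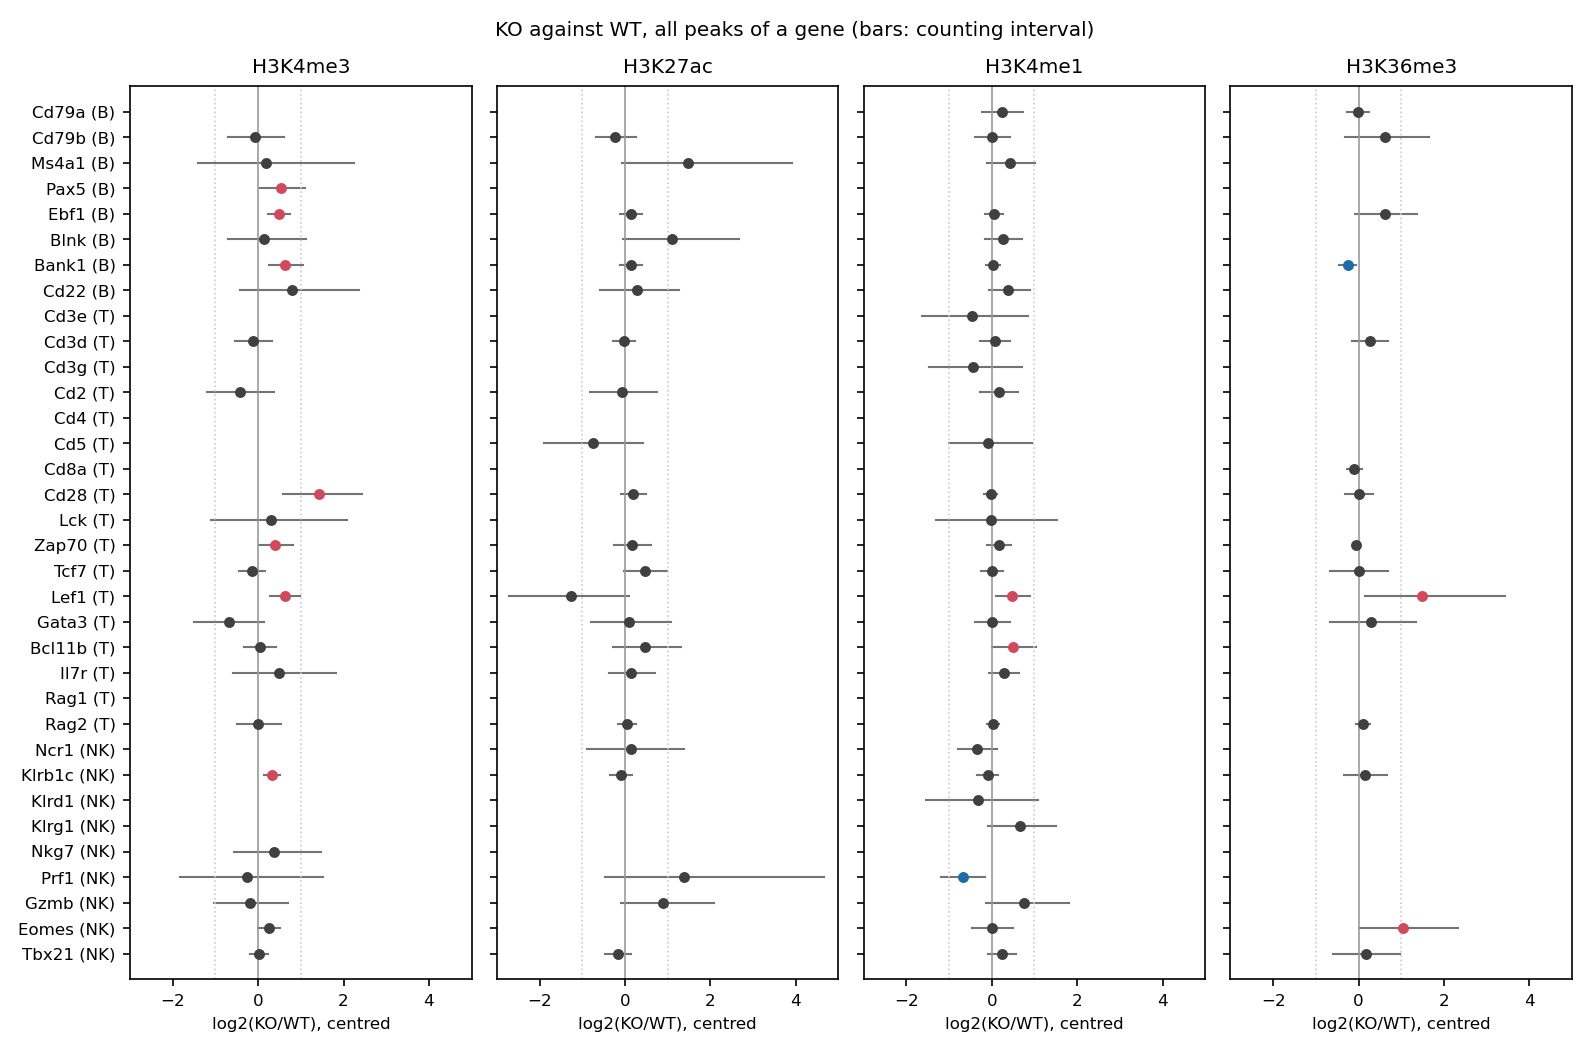
Centred log2(KO/WT) of the summed signal of each lymphocyte gene in 4 marks, with 95% counting intervals as bars, for genes with at least 20 reads over the pair of libraries. Red points have an interval above 0 and blue points one below 0, and most points sit between the dotted lines at -1 and 1, with Cd28 in H3K4me3 at 1.42 and Lef1 in H3K36me3 at 1.48 among those outside.

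The purity of the sort can be described by marker lists, as levels and not as cell shares. The mean H3K4me3 at the start was 47.0 in WT and 54.5 in KO for the lymphocyte genes, counting a gene without a peak as 0, against 1271 and 1530 for 20 neutrophil markers. This is 3.70% and 3.56% of the neutrophil mean, with 3.54% and 3.85% for the B cell genes, 3.09% and 2.90% for the T cell genes and 4.98% and 4.55% for the NK genes. The NK value rests largely on Tbx21, which gave 377 of the NK sum of 570 in WT and 371 of 626 in KO. A list of 30 genes of other tissues, among them liver, nerve, muscle, skin, connective tissue and pancreas, stood at 41.7 and 54.7, or 3.28% and 3.58%. The lymphocyte genes and the genes of other tissues thus lay close together in mean promoter H3K4me3.

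H3K27ac at the start was 28.5 and 29.6 on average for the lymphocyte genes, 3.16% and 3.46% of the neutrophil marker mean of 902 and 855, and 2.2 and 1.72 for the genes of other tissues, 0.24% and 0.20%. Cd3d alone gave 421 of the WT sum of 969, mostly from the peak over its last exon, and without it the mean was 16.6 and 17.9. With the gene bodies included the means were 44.0 and 48.2 for the lymphocyte genes and 26.6 and 24.4 for the genes of other tissues. These are 4.75% and 5.47% against 2.87% and 2.77% of the neutrophil mean. The mean of the other tissues rests on few genes, as 3 of the 30 had such signal and 1 gave 730 of the WT sum of 798. At the start the B cell genes averaged 36.8 and 39.6, the T cell genes 34.8 and 36.1 and the NK genes 9.18 and 8.55. Mean H3K4me1 at the start was closer to the neutrophil mean, with 77.9 and 80.3 for the lymphocyte genes against 313 and 316, or 24.9% and 25.4%. The B cell genes had 48.6% and 52.1%, and Bank1 gave 564 of their WT sum of 1216. Other tissue genes had 6.23% and 5.43%. Only 10 of the 20 neutrophil markers had such a peak, and 1 of them gave 2171 of the WT sum of 6257. The neutrophil median was 10.2 and 2.96, below the 22.1 and 19.8 of the lymphocyte genes, with 0 for a gene without a peak.

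In lists of 10 defining markers, which share 6 (B cell), 5 (T cell) and 6 (NK cell) genes with the set, 6 of 10 B cell, 6 of 10 T cell and 4 of 10 NK cell markers had an H3K4me3 start peak, with summed signals of 306 and 425, 374 and 398, and 193 and 256. H3K27ac start sums were 201 and 199, 732 and 693, and 52.3 and 58.5, against 18048 and 17099.7 for the neutrophil list, which holds 20 genes. Per listed gene the means were 2.23% and 2.33%, 8.11% and 8.10%, and 0.58% and 0.68% of the neutrophil mean. Cd3d alone gave 421 of the T cell WT sum of 732. By nearest-start naming, markers without an H3K4me3 or H3K27ac start peak included Pou2af1 (B cells), Cd3e, Cd3g, Cd5 and Cd247 (T cells) and Ncr1, Klre1, Klrk1, Il2rb and Gzma (NK cells). Cd247 had 344 and 339 of H3K4me3 in its own body. With own bodies included, mean H3K27ac of the T cell markers was 21.9% and 22.3% of the neutrophil mean. A single gene gave 1126 of their WT sum of 2029. The same mean was 5.52% and 6.51% for B cell markers and 0.56% and 0.66% for NK cell markers. The part of lymphocytes in the sorted cells was not tested. Monocyte and macrophage markers averaged 99.1 and 116 of H3K4me3 and 99.9 and 106 of H3K27ac at the start. Ly6c2 alone had 689.6 and 830.1 of H3K4me3 and 735 and 773 of H3K27ac, and without it the monocyte and macrophage means were 33.5 and 37.1 of H3K4me3 and 29.4 and 32.2 of H3K27ac. Mean H3K4me3 was 102 and 117 for erythroid and 11.3 and 12.5 for eosinophil markers, and 606 and 640 for genes used by every cell. Klf1 gave 332 of the erythroid WT sum of 508. Mean H3K27ac at the start was 17.6 and 20.1 for erythroid and 71.6 and 79.4 for eosinophil markers, and 512 and 480 for genes used by every cell. A single eosinophil gene gave 330 of the WT sum of 358 in that list. Further lymphocyte genes outside the set had a mean H3K4me3 at the start of 47.9 and 46.1 (B cell), 46.6 and 59.3 (T cell) and 8.94 and 11.2 (NK cell). Ralgps2 alone gave 494 of this B cell WT sum of 718.

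**Figure D5:**
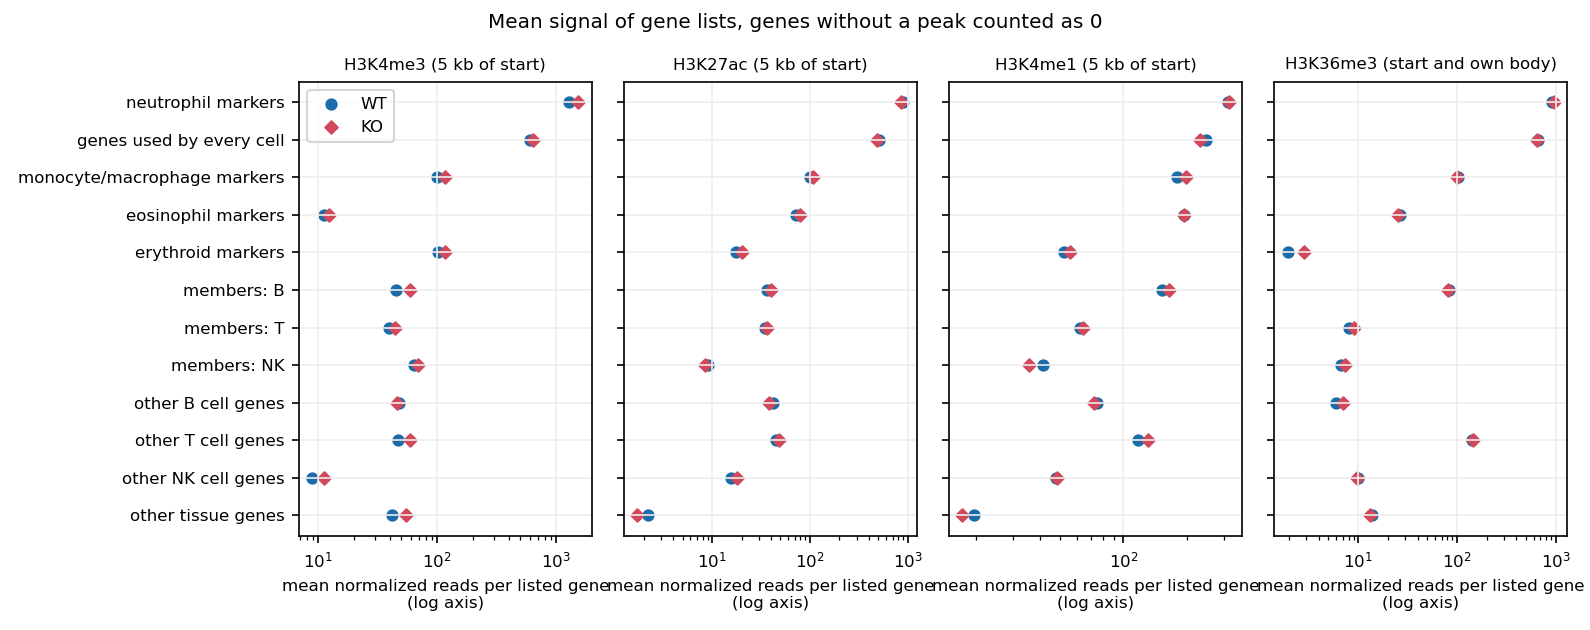
Mean normalized reads per listed gene (log axis) in the WT library (circles) and the KO library (diamonds), at the start for H3K4me3, H3K27ac and H3K4me1 and at the start and own body for H3K36me3, with genes without a peak counted as 0. Neutrophil markers are highest at 1271 for H3K4me3 and 902 for H3K27ac in WT, and genes of other tissues are at 2.2 for H3K27ac while they are at 41.7 for H3K4me3.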

How the data were processed

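Chromatin immunoprecipitation and sequencing (ChIP-seq) of 4 histone marks in sorted neutrophils gave 8 libraries, and the 2 samples titled as input were not used. The deposited tables were made with bcl2fastq (2.16.0), Trimmomatic (version 0.32), Bowtie2 (2.2.3) and MACS2 (2.1.0), together with DiffBind, HOMER and R (3.1.1), on build mm9, per the submitters' processing notes. Each holds the consensus peaks of 1 mark, the authors' normalized read signal per library and a log2 fold column that the authors computed from that signal and that was not used. Every signal was a whole multiple of the lowest one in its column (tolerance 0.01 of a read), so whole reads were recovered, and a peak shown with 1 read may have had none. Replicate numbers and residual degrees of freedom do not exist here, so no count model could be fitted.

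Peaks were summed per gene by the deposited nearest start, with a pseudocount of 1. Intervals are exact (Clopper-Pearson) on recovered reads and cover counting error only, as PCR copies are not independent molecules. The 20 read minimum in the log2 plot, the 10 read minimum of start peaks and the 2-fold rule are choices of the re-analysis. All genes of the set are named, in full for the highest signals and largest differences of each mark. The genes, lists and roles were chosen with earlier results of these data known. Promoters came from RefSeq tables of GRCm38.p6, and no coordinate was converted between builds. The steps, tested on simulated reads, ran in Python 3.11.15 with pandas 2.3.3, numpy 2.4.6, matplotlib 3.10.9 and scipy 1.17.1.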

Additional observations from a re-analysis of the deposited data

How the results depend on the processing

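No paired analysis was possible because each mark has 1 library per genotype and the labels give no replicate numbers. The median log2(KO/WT) of the lymphocyte genes moved by less than the spread between genes under all 36 alternatives, although for H3K4me3 it was 0.01 with a running median over genes of similar mean and 0.24 without peaks of 1 read. Leaving out peaks inside another gene or peaks of 1 read in both libraries was chosen after seeing the data, as was leaving out the Zap70 peak, Ly6c2 or Cd3d. Counts of genes past 2-fold were small and unstable. For H3K4me3 the 1 higher gene fell to 0 at start peaks, and the 3 lower genes became 0 with a pseudocount of 10, with at least 20 reads or with the KO thinned to the WT total, and 1 with a running median or without 1-read peaks. For H3K27ac the 3 higher became 0 with a pseudocount of 10, and the 1 lower became 2 at start peaks or without peaks in other genes, and 0 with a pseudocount of 10 or thinning. For H3K4me1 the 1 lower became 0 with a pseudocount of 10, a running median, at least 20 reads or thinning, and 2 without peaks in other genes. For H3K36me3 the 2 higher became 1 at start peaks, with a running median or thinned, and 0 with a pseudocount of 10. Requiring 10 reads in both libraries left 16 of 27 genes with any H3K4me3 peak, 13 of 25 with any H3K27ac peak and 7 of 17 with an H3K27ac start peak. A 1 kb window left 11 of the 18 H3K4me3, 7 of the 17 H3K27ac and 5 of the 8 H3K36me3 start genes. By start peaks alone the median percentile was 12.2 (WT) and 13.6 (KO) for H3K27ac, from 28.5 for both, and 34.7 for H3K4me1 in KO, from 51.5. At an observed/expected CpG of at least 0.75 and a GC of at least 55% 3 of the 5 CpG-rich genes with an H3K4me3 start peak were left. WT depth limits the first 3 marks, where 1 read is worth 2.35 to 3.40 normalized reads. Apart from fewer peaks or genes entering, the cause was not tested.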
